A study of Mus musculus with 9 samples.

Results

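Of the 24012 genes in the table, 147 were higher in tumour cells whose Gstt1 reporter was bright, and also in tumour cells taken from the lung at 5 days, than in cells whose reporter was dim. They were chosen on the values described here. The mean log2(CPM + 1), where CPM is the reads of a gene per 1000000 reads of its library, had to exceed that of mCherryLow by at least 1 in mCherryHigh and in DTC. All 6 values of those groups had to lie above the highest mCherryLow value, and the mean had to reach 10 CPM in both groups. Symbols of ribosomal proteins (Rpl, Rps), olfactory receptors (Olfr), microRNAs (Mir) and provisional genes (Gm plus digits, or ending in Rik) were passed over. This removed 17 genes that met the other conditions. Other provisional symbols, such as AI646023, were kept. The members are 0.856% of the 17168 genes with other symbols and 1.67% of the 8797 of these that reached 10 CPM in both groups. Since the rule used the differences of DTC and of mCherryHigh from mCherryLow, these are given for the members as a description without a test. The members were tested between DTC and mCherryHigh. The rule used the same libraries and kept DTC at least 1 above mCherryLow, which limits how far a member can fall in DTC.

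The study sequenced RNA of pancreatic ductal adenocarcinoma cells that had been injected into the tail vein of mice and were sorted from their lungs. The cells of all 3 groups carried the genotype written on the labels as SIRT6F/F/p48-Cre/p53F/+KrasL/+, in which p48-Cre acts in the pancreatic lineage, together with GFP and a Gstt1-mCherry reporter. The DTC group holds 3 libraries of GFP-positive cells taken at 5 days. The mCherryHigh and mCherryLow groups hold 3 libraries each of GFP-positive cells sorted by reporter signal at 6 weeks. Injected cells first lodge in lung capillaries, and only some of them go on to grow into colonies. Gstt1 encodes a theta-class glutathione transferase, which joins glutathione to reactive compounds. Whether libraries of 1 group stem from different mice is not stated, and p-values then measure a spread that may be technical. Nor is the line or clone named that was injected.

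Library totals recovered from the values ran from 923988 to 2052623 reads in DTC, from 643748 to 9800173 reads in mCherryHigh and from 2051266 to 11861241 reads in mCherryLow. In mCherryHigh 1, the shallowest library, 3 reads make 4.66 CPM, the level that an observed 0 still allows. The DTC libraries stood apart on the first principal component (58.6% of the variance) and mCherryHigh 1 on the second (13.3%). Summed markers of lymphocytes, endothelium, lung epithelium, and erythroid cells and platelets were higher in every DTC library than in any other library. Those of macrophages, neutrophils and fibroblasts overlapped between DTC and at least 1 other group. In bulk samples more cells of a type and more RNA per cell cannot be told apart. The summed level of 33 of 35 listed macrophage and monocyte markers was 5077 to 12099 CPM in DTC, 1235 to 3396 CPM in mCherryHigh and 715 to 5368 CPM in mCherryLow. Of the T, NK and B cell markers, 22 of 26 summed to 214 to 711 CPM in DTC, 51.7 to 68.3 CPM in mCherryHigh and 33.1 to 50.7 CPM in mCherryLow, and 21 of 22 endothelial markers to 481 to 1018, 266 to 311 and 194 to 255 CPM in the same order. Markers of lung epithelium, 19 of 20 of them in the table, summed to 440 to 789 CPM in DTC, 203 to 288 CPM in mCherryHigh and 158 to 198 CPM in mCherryLow. Neutrophil markers (14 of 15) summed to 138 to 265 CPM in DTC, 28.0 to 149 CPM in mCherryHigh and 22.9 to 135 CPM in mCherryLow, and the groups overlapped for fibroblast and pericyte markers (19 of 20), at 326 to 523, 283 to 502 and 212 to 433 CPM. Erythroid and platelet markers (10 of 12) summed to 110 to 277, 32.9 to 54.4 and 20.6 to 45.4 CPM in the same order. Pancreas markers (16 of 22) were lower in DTC than in mCherryHigh, at 215 to 1161, 1235 to 2537 and 1057 to 1457 CPM. The groups overlapped for epithelial identity markers (40 of 40), at 1228 to 6766, 3318 to 7511 and 2568 to 3449 CPM. The ductal keratin Krt19 was present in every library, at 74.7 to 885 CPM in DTC, 1102 to 2369 CPM in mCherryHigh and 896 to 1320 CPM in mCherryLow. Sirt6, whose floxed alleles all groups carry, had 3.41 to 9.74 CPM in DTC, 7.55 to 24.9 CPM in mCherryHigh and 10.03 to 12.2 CPM in mCherryLow, and a gene total does not show whether an exon was lost. Gstt1 is not a member, since it was at 6.09 to 11.2 CPM in DTC, 48.4 to 60.6 CPM in mCherryHigh and 11.9 to 29.4 CPM in mCherryLow.

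The members are spread over transcription factors, cell adhesion proteins, kinases and regulators of small GTPases, ion and solute transporters, and enzymes of lipid metabolism. Epithelial cells keep their identity through factors such as those of the grainyhead family and through tight junctions, and the WNT and BMP pathways set growth and differentiation in epithelial tissue. Of 31 lists of pathways and cell types, 11 hold at least 1 member and 20 hold none. In all, 16 members are on a list and 131 are on none. Of the 660 genes on a list that reached 10 CPM in both groups, members were thus 2.42%, near the 1.67% of all 8797 genes at this level. Among genes that reached 10 CPM in both groups, members made up 2 of 21 epithelial genes (Grhl2 and Ocln), 3 of 66 chromatin regulators (Tet2, Setd2 and Kdm4a) and 2 of 32 Notch, WNT and Hippo genes (Lgr5 and Rnf43). They made up 2 of 38 receptor kinase and Ras pathway genes (Braf and Ddr2), 1 of 34 matrix genes (Col6a3), 1 of 26 TGF-beta and BMP genes (Bmpr2), 1 of 20 p53 target genes (Trp53inp1) and 1 of 41 interferon-stimulated genes (Nlrc5). Among the cell type lists, the general leukocyte list holds Vav1 (1 of 12 genes at this level), the lymphocyte list Cd28 (1 of 1) and the endothelial list Eng (1 of 5). The lists for macrophages and monocytes (17), fibroblasts and pericytes (6), lung epithelium (6) and pancreas (4) hold no member. Those for neutrophils and for erythroid cells and platelets had 0 genes at this level. No member is on the lists for glutathione and NRF2 (25 genes at this level), hypoxia (26), mesenchymal transition (12) or DNA replication (45). The lists for mitosis (33), integrins and adhesion (24), NF-kB targets and chemokines (28) and splicing (35) hold none either. Also empty are those for fatty acid and cholesterol metabolism (30), solute carriers of amino acids, metals and glucose (17), and autophagy and lysosome (36). So are those for immediate early genes (29), MHC class I and II (11), and complement and coagulation (7). At a share of 1.67% lists of these sizes would hold less than 1 member each.

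**Figure D1:**
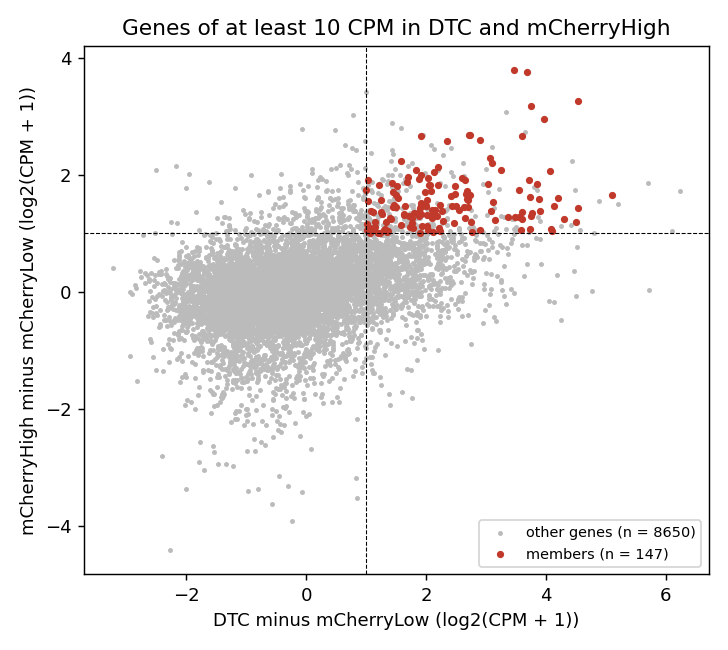
Each point is a gene that reached 10 CPM in DTC and in mCherryHigh, by its DTC minus mCherryLow difference (horizontal axis) and its mCherryHigh minus mCherryLow difference (vertical axis), both on the log2(CPM + 1) scale. The 147 members (red) lie beyond the dashed lines at 1 on both axes. Other genes in that corner (grey) had groups that overlapped or symbols that the rule passed over.

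The steps of the rule show how the group arose. Of the 8797 genes that reached 10 CPM in both groups, 629 were at least 1 higher in mCherryHigh and 1317 were at least 1 higher in DTC than in mCherryLow. Across all 15437 genes tested between mCherryHigh and mCherryLow, limma called 0 (0%) at an adjusted p below 0.05, while 1448 had an unadjusted p below 0.05, edgeR called 0 and DESeq2 called 148. The genes past both differences numbered 358, and 147 of them, or 41.1%, also had groups that did not overlap. These comparisons share their mCherryLow libraries. The median member was 2.10 higher in DTC and 1.44 higher in mCherryHigh than in mCherryLow, against medians of -0.30 and 0.01 over the 8797 genes. The larger difference was that of DTC in 116 members and that of mCherryHigh in 31. The median member was at 51.1 CPM in DTC and 26.9 CPM in mCherryHigh, against 8.07 CPM in mCherryLow. For 49 members the lowest DTC or mCherryHigh value and the highest mCherryLow value had 95% exact Poisson intervals that did not overlap, and for 98 they overlapped. Such intervals cover counting error only. The lowest value rested on a median of 104 reads, and on fewer than 10 reads in 14 members.

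The leading members, ranked by the smaller of the 2 differences, are not from a single pathway. Per-library values are given in the order DTC 1, 2 and 3, then mCherryHigh 1, 5 and 6, then mCherryLow 1, 5 and 6. Spin4, a reader of histone methylation, was at 10.7, 16.1 and 16.2 CPM in DTC, at 63.7, 13.7 and 3.27 CPM in mCherryHigh and at 0, 0.0939 and 0.506 CPM in mCherryLow. It was below 1 CPM in every mCherryLow library, and mCherryHigh 1 stood well above the other mCherryHigh libraries. Mid2, a ubiquitin ligase bound to microtubules, was at 22.8, 22.4 and 23.8 CPM in DTC, at 35.7, 9.59 and 70.1 CPM in mCherryHigh and at 0.488, 0.0939 and 5.40 CPM in mCherryLow. Its DTC values were almost equal, while those of mCherryHigh spread widely. Alg10b, the glucosyltransferase that completes the sugar chain for protein N-glycosylation, was at 42.6, 75.5 and 23.8 CPM in DTC, at 76.1, 3.57 and 15.5 CPM in mCherryHigh and at 0.488, 1.69 and 0.674 CPM in mCherryLow. Lrrc20 was at 20.6, 40.4 and 55.2 CPM in DTC, at 21.7, 17.1 and 35.5 CPM in mCherryHigh and at 0.488, 2.82 and 2.61 CPM in mCherryLow. As a ratio, Spin4 and Lrrc20 had the widest gaps of all members. The lowest Lrrc20 value was 17.1 CPM (95% Poisson interval 14.6 to 19.9), against 2.82 CPM (1.90 to 4.02) for the highest mCherryLow library. Grasp, a scaffold protein of membrane traffic, was at 96.7, 97.9 and 4.33 CPM in DTC, at 110.3, 4.80 and 8.69 CPM in mCherryHigh and at 0.488, 1.31 and 2.87 CPM in mCherryLow. DTC 3 and mCherryHigh 5 and 6 lay far nearer to the mCherryLow values than to the other DTC and mCherryHigh values. The Grasp value of DTC 3 rested on 4 reads (95% Poisson interval 1.18 to 11.1 CPM). That interval covered the one of mCherryLow 6 (1.99 to 4.01 CPM). For Alg10b the intervals of the nearest values overlapped too.

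**Figure D2:**
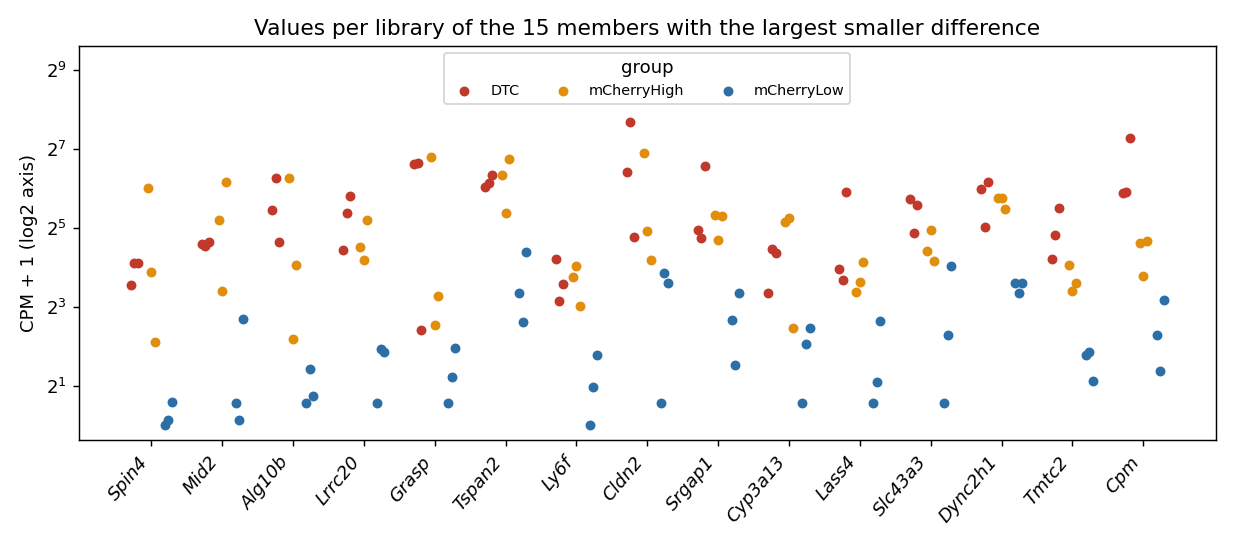
Each point is the value of 1 library, as CPM + 1 on a log2 axis, for the 15 members with the largest smaller difference; the groups stand side by side as DTC, mCherryHigh and mCherryLow. For each gene all 6 DTC and mCherryHigh points lie above the 3 mCherryLow points, as the rule requires, and for Cyp3a13 and Slc43a3 the nearest points almost touch.

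Several leading members act at the cell surface. The tetraspanin Tspan2 was at 63.9, 68.7 and 80.1 CPM in DTC, at 79.2, 40.3 and 105 CPM in mCherryHigh and at 9.26, 5.16 and 19.8 CPM in mCherryLow. Cldn2, a tight-junction claudin that forms a pore for cations and water, was at 83.7, 205 and 25.97 CPM in DTC, at 118, 28.98 and 17.3 CPM in mCherryHigh and at 0.488, 13.3 and 11.2 CPM in mCherryLow. Its highest values were those of DTC 2 and mCherryHigh 1, and mCherryLow 1 was far below the other mCherryLow libraries. Ly6f, a lipid-anchored protein of the Ly6 family, averaged 12.04 CPM in DTC, 11.6 CPM in mCherryHigh and 1.13 CPM in mCherryLow. Cpm, a carboxypeptidase on the outer membrane, was at 57.8, 58.5 and 154 CPM in DTC, at 23.3, 12.7 and 24.4 CPM in mCherryHigh and at 3.90, 1.60 and 7.92 CPM in mCherryLow. It rose in DTC relative to mCherryHigh, with DTC minus mCherryHigh at 2.00 (SE 0.51, limma adjusted p = 0.0144). Slc43a3, a carrier of purine bases, averaged 42.2 CPM in DTC, 22.3 CPM in mCherryHigh and 6.59 CPM in mCherryLow. Among enzymes, the cytochrome P450 Cyp3a13 averaged 16.5 CPM in DTC, 25.3 CPM in mCherryHigh and 2.72 CPM in mCherryLow. Tmtc2, a transferase of the endoplasmic reticulum that puts mannose on cadherins, averaged 29.7 CPM in DTC, 12.02 CPM in mCherryHigh and 2.08 CPM in mCherryLow.

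Promoter sequences are shown for 4 members, to set the kinds of start region in the group beside each other. They are the 160 bases before the annotated start of Cldn2 and Tfcp2l1, the highest ranked members with TATAAA where a TATA box acts, and of Spin4 and Alg10b, the highest ranked members with GGGCGG in that window. The sequences come from RefSeq on GRCm38.p6, a later build than the mm9 to which the reads were mapped. Each is written 5′ to 3′ on the strand of the gene, with TATAAA or GGGCGG, or its reverse complement, in capitals.
Cldn2 (chrX:139800648-139800807, plus strand): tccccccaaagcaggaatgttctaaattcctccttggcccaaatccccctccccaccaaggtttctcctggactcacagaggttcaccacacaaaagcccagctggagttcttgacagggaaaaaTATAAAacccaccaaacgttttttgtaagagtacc
Tfcp2l1 (chr1:118627785-118627944, plus strand): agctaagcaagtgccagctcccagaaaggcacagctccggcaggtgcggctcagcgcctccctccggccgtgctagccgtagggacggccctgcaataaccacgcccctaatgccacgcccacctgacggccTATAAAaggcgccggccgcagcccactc
Spin4 (chrX:95026683-95026842, minus strand): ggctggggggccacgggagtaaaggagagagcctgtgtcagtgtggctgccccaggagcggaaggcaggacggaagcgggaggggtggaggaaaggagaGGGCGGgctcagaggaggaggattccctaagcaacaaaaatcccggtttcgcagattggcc
Alg10b (chr15:90224151-90224310, plus strand): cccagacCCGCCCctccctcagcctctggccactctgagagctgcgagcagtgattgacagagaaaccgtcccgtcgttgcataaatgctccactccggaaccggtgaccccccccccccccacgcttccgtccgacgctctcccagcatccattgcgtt
Counted back from the start, the capitals begin at -35 in Cldn2, -28 in Tfcp2l1, -61 in Spin4 and -153 in Alg10b. Promoters of 300 bases, from 250 before to 50 after the start, matched 122 of the 147 members and 7448 genes that reached 10 CPM in both groups. The 7448 were not filtered by symbol, so unlike the 8797 they can include ribosomal protein and provisional genes. Each motif was searched on both strands, overlaps between motifs were kept, and the share in all 14902 promoters is given last. GGGCGG, the GC box, was found in 52.5% of the members' promoters, against 68.4% of the 7448 and 52.9% of all. CGGAAG, the core bound by ETS factors, was found in 15.6%, against 35.1% and 24.4%. CCAAT was found in 30.3%, against 38.9% and 38.3%. Both TATAAA, at 10.7% against 6.63% and 10.5%, and the GC box were thus near their share in all promoters, which include those of genes below 10 CPM. CACGTG was found in 8.20%, against 10.8% and 8.83%. TGACGTCA was found in 4.92%, against 3.65% and 2.64%, and TGACTCA in 3.28%, against 3.40% and 4.38%. TGTTTAC, a FOXO sequence, was found in 1.64%, against 2.51% and 2.83%. AACNNGTT, which grainyhead factors bind, was in 4.92%, against 3.16% and 3.84%. The ratio of observed to expected CpG had a median of 0.66 in members and 0.80 in the 7448, while GC content was alike, at 62.2% and 61.7%.

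DTC with mCherryHigh was tested with limma on log2(CPM + 1), with Benjamini-Hochberg adjustment over 19700 genes. It asks how cells at 5 days differ from reporter-high cells at 6 weeks among genes that were high in both. Of the 147 members, 34 (23.1%) rose in DTC, against a background of 23.0% of all genes tested, and 0 fell, against a background of 7.19%. The rule limits falls, since each member had to be at least 1 above mCherryLow in DTC. The median member was 1.44 above mCherryLow in mCherryHigh, and the smallest difference called in members was 1.12. The count of 0 thus follows largely from the rule. The median member was 0.59 higher in DTC, where the median of all genes tested was 0.55 higher, so the share that rose and the median both lay near those of the whole table. The table includes genes of low level, and the 8797 genes that reached 10 CPM in both groups had a median of -0.24, with 5.64% higher in DTC and 12.9% lower. The values of the members stood above those of genes at their level, which was not tested, and the rule used the same DTC values. All 3 DTC values lay above all 3 mCherryHigh values in 54 members (36.7%, background 31.4%) and below them in 1, Slc6a8 (0.680%, background 13.2%). The rule limits the count below too. For 38 members the groups differed by less than 0.25 on the log2 scale. Without DTC 1 the members that rose numbered 22, and without DTC 3 they numbered 21. Of the calls over all genes, 76.2% were higher in DTC, and with TMM scaling 59.6% were, when the median of all genes was 0.18, that of the members 0.16 and 23 members rose. With quantile normalization the median of all genes was 0.03 and that of the members 0.50, and 25 members rose among 1792 genes. With a filter of 5 CPM in 3 libraries the medians were 0.23 and 0.59, and 35 members rose among 3565 genes. Under all 18 other settings and left-out libraries, 19 of the 34 stayed past the threshold, among them Fat3, Tnik, Gabrb2, Syt1, Abca13, Reln, Maf, Lgr5, Prdm11, Aph1c, Gpr98, Ikzf2, Esr1, St18, Nr6a1, Ccdc141, Inpp5d and Lztfl1. The other 15 missed it under at least 1 setting, all in the same direction, namely AI646023, Acer2, Atp6v0c, Braf, Cd28, Cpm, Dclk1, Plekhg1, Serpina3g, Sox2ot, Tanc2, Taok1, Tdrd5, Tnfsf15 and Zfp652. The call was missed under 13 of the 18 for Plekhg1 and Tdrd5, 12 for Atp6v0c, 11 for Zfp652, 9 for Taok1 and 8 for Cd28. It was missed under 6 for Acer2, Braf and Serpina3g, 5 for Dclk1, 4 for Tnfsf15, 3 for AI646023 and Tanc2 and 1 for Cpm and Sox2ot. The calls lost when a library was left out are given next, with DTC minus mCherryHigh under that omission in brackets. Without DTC 1 the call was lost for AI646023 (1.85), Acer2 (1.67), Atp6v0c (1.54), Braf (1.30), Cd28 (1.41), Dclk1 (1.47), Serpina3g (1.35), Sox2ot (2.12), Taok1 (1.07), Tdrd5 (1.77), Tnfsf15 (1.92) and Zfp652 (1.31). Without DTC 2 the call was lost for Atp6v0c (1.32), Plekhg1 (1.93), Taok1 (1.24), Tdrd5 (1.58) and Zfp652 (1.37). Without DTC 3 the call was lost for AI646023 (1.94), Acer2 (1.61), Atp6v0c (1.32), Braf (1.09), Cd28 (1.42), Cpm (1.54), Dclk1 (1.69), Plekhg1 (1.18), Tanc2 (1.34), Taok1 (1.07), Tdrd5 (1.31), Tnfsf15 (1.68) and Zfp652 (1.03). Losses were most frequent without DTC 1 or DTC 3, and each omission leaves 5 libraries. Without mCherryHigh 1 the call was lost for Taok1 (1.08). Without mCherryHigh 5 the call was lost for Acer2 (1.85), Atp6v0c (1.05), Braf (0.95), Cd28 (1.62), Dclk1 (1.46), Plekhg1 (1.57), Taok1 (0.84), Tdrd5 (1.40) and Zfp652 (0.96). Without mCherryHigh 6 the call was lost for Acer2 (1.88), Atp6v0c (1.59), Cd28 (1.31), Plekhg1 (1.88), Serpina3g (1.80), Tdrd5 (1.42), Tnfsf15 (1.68) and Zfp652 (1.34).

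**Figure D3:**
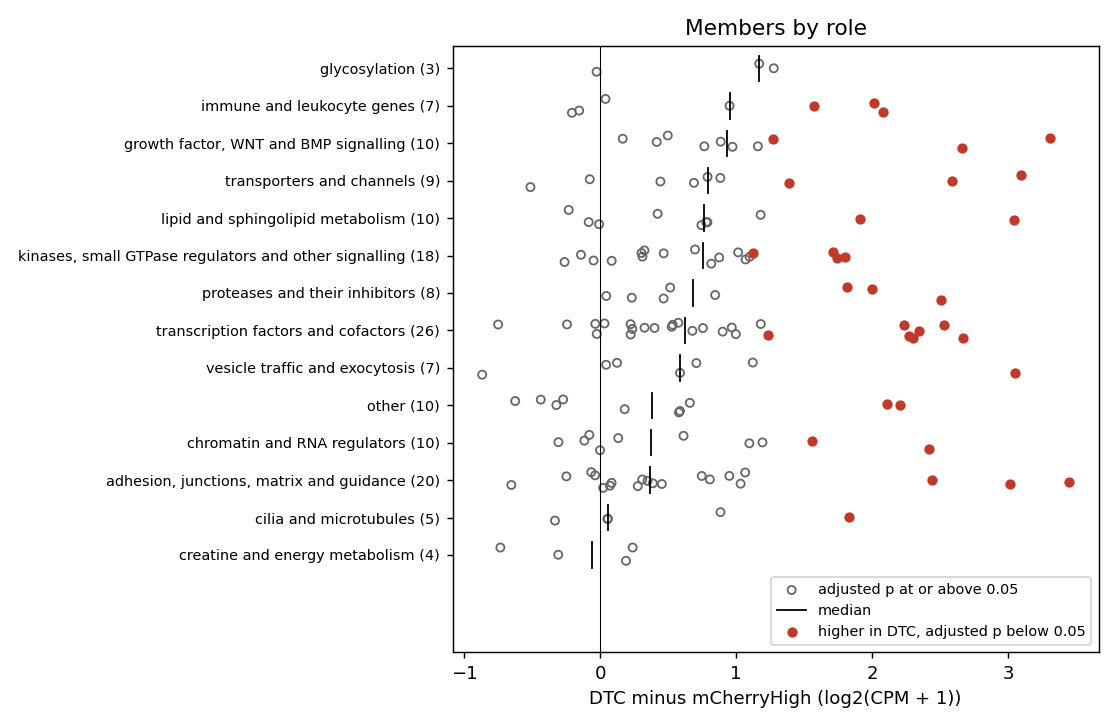
DTC minus mCherryHigh on the log2(CPM + 1) scale (horizontal axis) is shown for each of the 147 members by role, with the number of members in brackets and a black bar at the median. Filled points are the 34 members that rose in DTC (limma adjusted p below 0.05), of which the largest is Fat3 at 3.45. None fell, and the rule limits how far a member can fall.

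The members that rose most in DTC include large genes known from neurons. Fat3, a giant cadherin, was at 109, 121 and 325 CPM in DTC, at 13.98, 14.5 and 13.5 CPM in mCherryHigh and at 0.975, 6.95 and 5.90 CPM in mCherryLow. DTC minus mCherryHigh was 3.45 (SE 0.48, limma adjusted p = 0.00165), and mCherryHigh minus mCherryLow was 1.65. Tnik, a kinase that activates WNT target genes, was at 135, 61.9 and 207 CPM in DTC, at 15.5, 10.6 and 8.59 CPM in mCherryHigh and at 1.95, 8.08 and 4.72 CPM in mCherryLow, with DTC minus mCherryHigh at 3.31 (SE 0.52, limma adjusted p = 0.00223). Gabrb2, a subunit of the GABA receptor channel, was at 142, 75.5 and 173 CPM in DTC, at 13.98, 12.4 and 14.2 CPM in mCherryHigh and at 2.44, 4.32 and 7.42 CPM in mCherryLow, with DTC minus mCherryHigh at 3.09 (SE 0.44, limma adjusted p = 0.00179). In these 3 genes every DTC library lay far above the other 6, while mCherryHigh and mCherryLow were closer together. Syt1, the calcium sensor of synaptic vesicles, rose by 3.05 in DTC (SE 0.56, limma adjusted p = 0.00388), at 122 CPM in DTC against 12.3 CPM in mCherryHigh. Reln, an extracellular guide of migrating neurons, rose by 3.01 (SE 0.44, limma adjusted p = 0.00188), at 121 CPM in DTC against 13.6 CPM in mCherryHigh. Abca13, a lipid transporter, rose by 3.04 (SE 0.50, limma adjusted p = 0.00267), at 98.9 CPM in DTC against 10.1 CPM in mCherryHigh. The 34 members that rose had a median of 75.7 CPM in DTC and 13.7 CPM in mCherryHigh, against 4.92 CPM in mCherryLow. The other 113 had 41.5 CPM in DTC and 32.4 CPM in mCherryHigh, against 10.8 CPM in mCherryLow. As medians, the members that rose were higher in DTC but lower in mCherryHigh and in mCherryLow than the rest. The split used DTC minus mCherryHigh itself, so the DTC and mCherryHigh medians are a description.

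Among the 26 transcription factors and cofactors, 7 (26.9%) rose in DTC, against 23.0% of all genes tested and 5.64% of genes at the members' level. None fell, against 7.19% and 12.9%, but the rule limits how far a member can fall. Roles were assigned after the values were seen. Esr1, the oestrogen receptor alpha, was at 86.8, 67.7 and 163 CPM in DTC, at 13.98, 12.04 and 41.2 CPM in mCherryHigh and at 3.90, 6.48 and 7.42 CPM in mCherryLow. DTC minus mCherryHigh was 2.30 (SE 0.55, limma adjusted p = 0.0106). Maf, a leucine zipper factor of lens and macrophages, was at 54.8, 52.1 and 95.2 CPM in DTC, at 9.32, 5.20 and 16.5 CPM in mCherryHigh and at 3.90, 3.76 and 4.22 CPM in mCherryLow, with DTC minus mCherryHigh at 2.67 (SE 0.54, limma adjusted p = 0.00545). Ikzf2, an Ikaros-family zinc finger factor of lymphocytes, was the most abundant of the 7 in DTC, at 275, 135 and 227 CPM in DTC, at 51.3, 26.7 and 43.9 CPM in mCherryHigh and at 7.80, 22.1 and 22.7 CPM in mCherryLow. It differed by 2.35 (SE 0.42, limma adjusted p = 0.0035). Nr6a1, an orphan nuclear receptor of germ cells and embryos, averaged 87.7 CPM in DTC, 17.6 CPM in mCherryHigh and 6.57 CPM in mCherryLow, and differed by 2.23 (SE 0.42, limma adjusted p = 0.00409). Prdm11, of the PR domain family, St18, a zinc finger repressor, and the zinc finger gene Zfp652 were the other 3, with differences of 2.53, 2.27 and 1.24. The call of Zfp652 was missed under 11 of 18 other settings. Only 81.4% of the 50-base windows of Zfp652 are unique among annotated transcripts, so its reads may include those of other genes.

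Factors tied to epithelial state did not pass the test between DTC and mCherryHigh. Lung epithelial markers were higher in DTC, with Scgb1a1 at 69.3, 185 and 43.3 CPM in DTC, at 1.55, 30.7 and 26.0 CPM in mCherryHigh and at 1.95, 3.94 and 11.1 CPM in mCherryLow, and their part in the values of epithelial members was not tested. Sftpc, of alveolar cells, was at 9.89, 175 and 7.58 CPM in DTC, and at or under 1.55 CPM in every other library. Grhl2, which maintains epithelial identity, was at 10.7, 12.7 and 71.4 CPM in DTC, at 15.5, 19.4 and 7.36 CPM in mCherryHigh and at 1.46, 3.57 and 4.81 CPM in mCherryLow. DTC 3 stood far above the other libraries, and DTC minus mCherryHigh was 0.68 (SE 0.74, limma adjusted p = 0.512). Tfcp2l1, a grainyhead-related factor, was at 19.8, 25.8 and 34.6 CPM in DTC, at 13.98, 17.4 and 23.1 CPM in mCherryHigh and at 3.41, 7.04 and 7.92 CPM in mCherryLow, with DTC minus mCherryHigh at 0.53 (SE 0.49, limma adjusted p = 0.442). Foxo3, a factor of stress resistance and quiescence, was at 48.7, 28.3 and 47.6 CPM in DTC, at 31.1, 34.6 and 30.5 CPM in mCherryHigh and at 14.6, 10.1 and 23.7 CPM in mCherryLow. Its groups were only just apart, and the lowest DTC value of 28.3 CPM had a counting interval of 21.5 to 36.5 CPM, against 23.7 CPM in mCherryLow 6. Nfat5, the factor of the response to osmotic stress, was among the most abundant members, at 137, 175 and 231 CPM in DTC, at 166, 133 and 157 CPM in mCherryHigh and at 62.9, 79.7 and 84.3 CPM in mCherryLow. Nfat5 was also among the 3 members nearest to the threshold, with the smaller difference at 1.00. Zbtb10 was at 17.5, 9.74 and 10.8 CPM in DTC, at 26.4, 16.3 and 22.6 CPM in mCherryHigh and at 2.93, 1.5 and 3.46 CPM in mCherryLow, higher in each mCherryHigh library than in DTC 2 and 3, with DTC minus mCherryHigh at -0.75 (SE 0.53, limma adjusted p = 0.306). Nkrf, which represses NF-kB target genes, averaged 21.8 CPM in DTC, 10.4 CPM in mCherryHigh and 2.93 CPM in mCherryLow. Ncoa2, a coactivator of nuclear receptors, averaged 74.6 CPM in DTC, 75.9 CPM in mCherryHigh and 33.7 CPM in mCherryLow. Nlrc5, the activator of MHC class I genes, averaged 26.1 CPM in DTC, 11.1 CPM in mCherryHigh and 4.75 CPM in mCherryLow, and Trp53inp1, a p53-induced cofactor of cell death and autophagy, averaged 86.7 CPM in DTC, 72.1 CPM in mCherryHigh and 23.8 CPM in mCherryLow. The zinc finger genes with symbols in Zfp or Zbtb numbered 9, or 6.12% of members, against 2.32% of the 8797 genes.

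Of the 10 regulators of chromatin and RNA, 2 rose in DTC. The shares were 23.0% of all genes tested and 5.64% of genes at the members' level. Tet2, which oxidises methylated cytosine, was at 104, 70.6 and 111 CPM in DTC, at 115, 73.9 and 123 CPM in mCherryHigh and at 36.6, 35.96 and 43.8 CPM in mCherryLow. Setd2, the methyltransferase of histone H3 at lysine 36, was at 174, 127 and 209 CPM in DTC, at 127, 73.9 and 136 CPM in mCherryHigh and at 49.7, 67.98 and 35.8 CPM in mCherryLow. Kdm4a, a histone demethylase, was at 20.6, 31.2 and 54.1 CPM in DTC, at 48.2, 24.4 and 57.1 CPM in mCherryHigh and at 16.6, 14.6 and 13.9 CPM in mCherryLow. For these 3 genes DTC and mCherryHigh overlapped, and DTC minus mCherryHigh was -0.12, 0.61 and -0.31. Msi2, an RNA-binding protein of stem cells, was at 142, 68.2 and 119 CPM in DTC, at 59.03, 19.7 and 79.3 CPM in mCherryHigh and at 10.7, 8.08 and 19.6 CPM in mCherryLow, with mCherryHigh 5 and mCherryLow 6 almost equal. Rc3h1, which degrades inflammatory mRNAs, averaged 141 CPM in DTC, 68.8 CPM in mCherryHigh and 31.99 CPM in mCherryLow, and the RNA helicase Helz averaged 157 CPM in DTC, 157 CPM in mCherryHigh and 71.99 CPM in mCherryLow. Prdm9, which marks sites of meiotic recombination, averaged 21.6 CPM in DTC, 19.4 CPM in mCherryHigh and 7.99 CPM in mCherryLow. Tdrd5, which silences transposons in the testis, rose in DTC, with DTC minus mCherryHigh at 1.56 (SE 0.54, limma adjusted p = 0.0488), a call that was missed under 13 of 18 other settings. Tex14, which keeps bridges between germ cells, averaged 19.4 CPM in DTC, 11.3 CPM in mCherryHigh and 5.06 CPM in mCherryLow. The long noncoding RNA Sox2ot rose in DTC by 2.41 (SE 0.55, limma adjusted p = 0.00908), at 73.9 CPM in DTC against 11.4 CPM in mCherryHigh.

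The 20 genes of adhesion, junctions, matrix and guidance had a median of 0.37 for DTC minus mCherryHigh, against 0.55 for all genes tested and -0.24 at the members' level. Of the 20, 3 rose, against 23.0% of all genes tested and 5.64% of genes at the members' level. They were Fat3, Reln and the giant adhesion receptor Gpr98, the last with DTC minus mCherryHigh at 2.44 (SE 0.46, limma adjusted p = 0.00418). Ocln, a strand protein of tight junctions, was at 44.9, 42.9 and 49.8 CPM in DTC, at 62.1, 42.7 and 30.98 CPM in mCherryHigh and at 24.9, 13.9 and 24.6 CPM in mCherryLow. Its DTC values lay within the range of mCherryHigh. Fat1, a relative of Fat3, averaged less in DTC than in mCherryHigh, at 78.4, 127 and 51.9 CPM in DTC, at 157, 77.5 and 168 CPM in mCherryHigh and at 37.1, 43.6 and 10.9 CPM in mCherryLow, with DTC minus mCherryHigh at -0.65 (SE 0.45, limma adjusted p = 0.292). A receptor and its signal partner were both members. Robo1, the receptor for the guidance cue Slit, was at 43.4, 28.3 and 44.4 CPM in DTC, at 35.7, 25.9 and 25.7 CPM in mCherryHigh and at 3.41, 7.70 and 14.7 CPM in mCherryLow. Srgap1, the GTPase-activating protein that acts under Robo receptors, was at 29.7, 25.8 and 93.1 CPM in DTC, at 38.8, 25 and 38.3 CPM in mCherryHigh and at 5.36, 1.88 and 9.11 CPM in mCherryLow. In both genes the DTC and mCherryHigh groups overlapped, with differences of 0.39 and 0.31. The collagen VI chain Col6a3 was at 50.2, 30.7 and 88.7 CPM in DTC, at 26.4, 22.4 and 23.7 CPM in mCherryHigh and at 10.2, 9.30 and 9.95 CPM in mCherryLow, even within mCherryHigh and within mCherryLow. Adam23, a membrane protein that binds secreted LGI proteins, averaged 55.8 CPM in DTC, 55.2 CPM in mCherryHigh and 14.6 CPM in mCherryLow. Nebl, an actin-binding protein, averaged 96.03 CPM in DTC, 76.01 CPM in mCherryHigh and 25 CPM in mCherryLow, and Kank1, which regulates actin at adhesions, averaged 27.02 CPM in DTC, 21.03 CPM in mCherryHigh and 5.76 CPM in mCherryLow. The tetraspanin Tspan7 averaged 67.4 CPM in DTC, 69.5 CPM in mCherryHigh and 18.8 CPM in mCherryLow.

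Members that act in the WNT pathway include the receptor Lgr5 and the ligase Rnf43, beside the kinase Tnik. Lgr5, the R-spondin receptor of intestinal stem cells, was at 57.8, 65.3 and 111 CPM in DTC, at 10.9, 17.04 and 7.16 CPM in mCherryHigh and at 5.85, 4.98 and 1.01 CPM in mCherryLow. It rose in DTC, with DTC minus mCherryHigh at 2.66 (SE 0.50, limma adjusted p = 0.00413), while mCherryHigh minus mCherryLow was 1.47. Rnf43, the ligase that removes WNT receptors from the surface, was at 22.1, 13.6 and 22.7 CPM in DTC, at 10.9, 21.2 and 9.82 CPM in mCherryHigh and at 6.34, 2.91 and 6.24 CPM in mCherryLow, with DTC minus mCherryHigh at 0.50 (SE 0.55, limma adjusted p = 0.521). Of the BMP and activin branch, the receptor Bmpr2 was at 22.8, 19.97 and 67.1 CPM in DTC, at 13.98, 9.39 and 43.6 CPM in mCherryHigh and at 5.36, 6.57 and 7.33 CPM in mCherryLow. The ligand Gdf11 averaged 61.6 CPM in DTC, 26.9 CPM in mCherryHigh and 9.73 CPM in mCherryLow. Eng, a co-receptor abundant in endothelium, was at 31.2, 16.6 and 47.6 CPM in DTC, at 17.1, 11.6 and 14.9 CPM in mCherryHigh and at 5.85, 3.10 and 5.23 CPM in mCherryLow. Endothelial markers were also higher in DTC (481 to 1018 CPM in sum), and their part in this result was not tested. Braf, a kinase of the Ras pathway, was at 218, 181 and 290.0 CPM in DTC, at 112, 58.98 and 121 CPM in mCherryHigh and at 32.7, 37.5 and 53.3 CPM in mCherryLow. It rose in DTC by 1.27 (SE 0.39, limma adjusted p = 0.0306). Ddr2, a kinase receptor for collagen, averaged 16.9 CPM in DTC, 12.6 CPM in mCherryHigh and 5.52 CPM in mCherryLow, and Lpar1, a receptor for lysophosphatidic acid, averaged 50.8 CPM in DTC, 48.3 CPM in mCherryHigh and 19.01 CPM in mCherryLow.

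Of the 18 kinases, GTPase regulators and other signalling proteins, 4 (22.2%) rose in DTC. The shares were 23.0% of all genes tested and 5.64% of genes at the members' level. Taok1, a stress kinase and the most abundant member, was at 348, 273 and 348 CPM in DTC, at 138, 98.8 and 232 CPM in mCherryHigh and at 67.8, 69.95 and 67.2 CPM in mCherryLow. Its mCherryLow values were nearly equal, and DTC minus mCherryHigh was 1.12 (SE 0.38, limma adjusted p = 0.0446). Dclk1, a microtubule-binding kinase that marks tuft cells, was at 93.6, 46.3 and 69.3 CPM in DTC, at 27.96, 13.7 and 20.1 CPM in mCherryHigh and at 4.39, 11.4 and 6.74 CPM in mCherryLow, with DTC minus mCherryHigh at 1.71 (SE 0.47, limma adjusted p = 0.0192). Tanc2, a scaffold protein, and Plekhg1, an activator of small GTPases, rose by 1.74 and 1.80, the second with a limma adjusted p of 0.0499 and a call that was missed under 13 of 18 other settings. Tiam1, an activator of Rac, was at 25.9, 25.3 and 43.3 CPM in DTC, at 20.2, 8.78 and 14.4 CPM in mCherryHigh and at 5.36, 4.51 and 2.36 CPM in mCherryLow. Pik3c2b, a class II phosphoinositide kinase, averaged 27.3 CPM in DTC, 28.7 CPM in mCherryHigh and 6.58 CPM in mCherryLow, and Map3k12, a kinase of axon injury responses, averaged 71.9 CPM in DTC, 44.3 CPM in mCherryHigh and 17.4 CPM in mCherryLow. Ssh2, a phosphatase that activates cofilin, averaged 105 CPM in DTC, 119 CPM in mCherryHigh and 54.8 CPM in mCherryLow, and Ralgapb, which restrains the GTPase Ral, averaged 99.1 CPM in DTC, 104 CPM in mCherryHigh and 48.03 CPM in mCherryLow. For Tiam1, Pik3c2b, Map3k12, Ssh2 and Ralgapb the test between DTC and mCherryHigh was not passed. The exons of Taok1, Map3k12 and Braf overlap those of a neighbouring gene, and the kit is not stated to keep the strand, so reads of the neighbour may be included. Fam126b, which helps place a lipid kinase at the membrane, was among the 10 most abundant members, at 159.8, 132 and 153 CPM in DTC, at 80.8, 66.3 and 108 CPM in mCherryHigh and at 25.4, 33.9 and 19.2 CPM in mCherryLow.

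Genes of vesicle release included a GTPase and its effector. Rab27b, which docks secretory vesicles, was at 81.4, 105 and 89.8 CPM in DTC, at 126, 25.6 and 21.9 CPM in mCherryHigh and at 8.78, 12.3 and 21.5 CPM in mCherryLow. Sytl2, an effector of Rab27 proteins, was at 44.9, 31.7 and 36.8 CPM in DTC, at 54.4, 144 and 41.8 CPM in mCherryHigh and at 5.85, 30.5 and 29.5 CPM in mCherryLow. Rab27b differed by 1.12 between DTC and mCherryHigh and Sytl2 by -0.87, the lowest value of all members, and neither passed the test. Stx16, which fuses vesicles at the Golgi, averaged 65.6 CPM in DTC, 59.5 CPM in mCherryHigh and 24.9 CPM in mCherryLow, and Stxbp5, which restrains such fusion, averaged 112 CPM in DTC, 73.5 CPM in mCherryHigh and 29.7 CPM in mCherryLow. Nbeal1 averaged 160.0 CPM in DTC, 111 CPM in mCherryHigh and 36.4 CPM in mCherryLow.

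Enzymes of sphingolipid metabolism were present at several steps. Lass4 makes ceramide, Acer2 cleaves ceramide in the Golgi and Sgpp2 removes the phosphate of sphingosine 1-phosphate. Lass4 was at 14.5, 11.7 and 58.4 CPM in DTC, at 9.32, 11.4 and 16.7 CPM in mCherryHigh and at 0.488, 1.13 and 5.23 CPM in mCherryLow. Acer2 was at 61.6, 19.97 and 67.1 CPM in DTC, at 12.4, 10.00 and 10.4 CPM in mCherryHigh and at 2.44, 6.01 and 4.38 CPM in mCherryLow, and rose in DTC by 1.91 (SE 0.56, limma adjusted p = 0.0264). Sgpp2 was at 38.1, 31.2 and 59.5 CPM in DTC, at 21.7, 25.1 and 26.3 CPM in mCherryHigh and at 11.2, 0.939 and 12.1 CPM in mCherryLow, lowest by far in mCherryLow 5. Its exons overlap those of Farsb. Lipe, the hormone-sensitive lipase, was at 25.9, 15.6 and 31.4 CPM in DTC, at 35.7, 16.7 and 25.5 CPM in mCherryHigh and at 6.34, 1.69 and 12.7 CPM in mCherryLow, and Apob, the protein of secreted lipoproteins, was at 56.3, 67.7 and 104 CPM in DTC, at 34.2, 24.7 and 38.3 CPM in mCherryHigh and at 9.75, 7.14 and 18.6 CPM in mCherryLow. Abhd2, a serine hydrolase, averaged 103 CPM in DTC, 106 CPM in mCherryHigh and 36.7 CPM in mCherryLow. Of the 10 lipid genes, Acer2 and Abca13 rose in DTC, against 23.0% of all genes tested and 5.64% of genes at the members' level.

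Creatine handling was represented by its carrier and a kinase. Slc6a8, the creatine transporter, was at 18.3, 19.5 and 27.1 CPM in DTC, at 40.4, 41.02 and 28.3 CPM in mCherryHigh and at 16.6, 8.73 and 7.08 CPM in mCherryLow. Ckmt1, the mitochondrial creatine kinase, was at 9.13, 8.77 and 19.5 CPM in DTC, at 12.4, 20.3 and 12.5 CPM in mCherryHigh and at 3.41, 1.97 and 5.73 CPM in mCherryLow. DTC minus mCherryHigh was -0.73 (SE 0.45, limma adjusted p = 0.24) for Slc6a8 and -0.31 (SE 0.58, limma adjusted p = 0.715) for Ckmt1. With the glycolytic regulator Pfkfb2 (50.8 CPM in DTC, 44.2 CPM in mCherryHigh and 21.98 CPM in mCherryLow) and Fnip1, a partner of the nutrient sensor folliculin (91.99 CPM in DTC, 78.9 CPM in mCherryHigh and 36.5 CPM in mCherryLow), these 4 genes had the lowest median of any role for DTC minus mCherryHigh, at -0.06, and none passed the test.

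Of 9 transporters and channels, 3 (33.3%) rose in DTC, against 23.0% of all genes tested and 5.64% of genes at the members' level. Among the 3 are Gabrb2 and Atp6v0c, a ring subunit of the vacuolar proton pump. The call of Atp6v0c was missed under 12 of 18 other settings. Slc1a2, a glutamate transporter, was at 113, 107 and 134 CPM in DTC, at 82.3, 60.8 and 61.7 CPM in mCherryHigh and at 32.2, 21.2 and 29.00 CPM in mCherryLow. Slc4a4, the bicarbonate cotransporter of pancreatic ducts, was at 22.8, 20.9 and 32.5 CPM in DTC, at 40.4, 30.5 and 38.04 CPM in mCherryHigh and at 15.6, 12.7 and 7.92 CPM in mCherryLow. Slc22a15 averaged 69.1 CPM in DTC, 43.2 CPM in mCherryHigh and 19.9 CPM in mCherryLow, and Cacna2d1, an accessory calcium channel subunit, averaged 32.97 CPM in DTC, 34.3 CPM in mCherryHigh and 10.8 CPM in mCherryLow. For Lrrc8a, the core subunit of the volume-regulated anion channel, only 33.8% of windows are unique, so its values are uncertain.

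The cilia genes Dync2h1, Ift122 and Lztfl1 all take part in transport to or within the cilium. Dync2h1, the heavy chain of the dynein motor that returns cargo from the tip, was at 61.6, 31.2 and 70.3 CPM in DTC, at 52.8, 52.6 and 43.4 CPM in mCherryHigh and at 11.2, 9.11 and 11.1 CPM in mCherryLow. Its values were close together within mCherryHigh and within mCherryLow. Ift122 averaged 27.6 CPM in DTC, 28.5 CPM in mCherryHigh and 11.4 CPM in mCherryLow. Lztfl1, which controls entry of signalling receptors, was at 106, 75.03 and 146 CPM in DTC, at 43.5, 20.7 and 26.5 CPM in mCherryHigh and at 12.2, 15.5 and 12.5 CPM in mCherryLow, and rose in DTC by 1.83 (SE 0.44, limma adjusted p = 0.0113).

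Some members are best known from leukocytes. Vav1, an activator of Rac in blood cells, was at 27.4, 29.7 and 59.5 CPM in DTC, at 49.7, 52.4 and 29.04 CPM in mCherryHigh and at 3.90, 11.7 and 24.9 CPM in mCherryLow. Pld4, an exonuclease of endolysosomes, was at 22.1, 25.8 and 24.9 CPM in DTC, at 31.1, 28.5 and 22.4 CPM in mCherryHigh and at 7.80, 5.26 and 11.97 CPM in mCherryLow. Clec12a, an inhibitory lectin of myeloid cells, was at 30.4, 27.8 and 32.5 CPM in DTC, at 10.9, 20.2 and 15.6 CPM in mCherryHigh and at 0.975, 5.26 and 8.43 CPM in mCherryLow. For these 3 genes mCherryHigh was further above mCherryLow than in the median member, by 1.89, 1.65 and 1.72. Cd28, the co-stimulator of T cells, was at 66.2, 33.6 and 64.9 CPM in DTC, at 23.3, 18.2 and 11.5 CPM in mCherryHigh and at 4.39, 3.66 and 8.35 CPM in mCherryLow, and rose in DTC by 1.58 (SE 0.49, limma adjusted p = 0.0323). Inpp5d, a phosphatase of phosphoinositides in blood cells, rose by 2.08 (SE 0.46, limma adjusted p = 0.00775), at 71.3 CPM in DTC against 15.6 CPM in mCherryHigh. The cytokine Tnfsf15 rose by 2.01 (SE 0.53, limma adjusted p = 0.0165), at 74.6 CPM in DTC against 17.3 CPM in mCherryHigh. Mmp12, the elastase of macrophages, was at 136, 118 and 187 CPM in DTC, at 112, 118 and 86.2 CPM in mCherryHigh and at 45.3, 25.9 and 56.9 CPM in mCherryLow. All 16 general leukocyte markers, Vav1 among them, summed to 1078 to 3011 CPM in DTC, 482 to 1108 CPM in mCherryHigh and 508 to 935 CPM in mCherryLow. Defining markers of leukocytes were present in DTC, with C1qa at 68.5, 58.5 and 120.1 CPM, Cd3e at 2.28, 4.87 and 27.1 CPM, Csf1r at 33.5, 37.03 and 36.8 CPM and Ptprc at 73.8, 66.3 and 154 CPM. In mCherryHigh, C1qa was at 1.55, 0 and 0 CPM, Cd3e at 1.55, 0 and 0 CPM, Csf1r at 3.11, 23.4 and 14.5 CPM, and Ptprc at 9.32, 22.9 and 18.8 CPM. In mCherryLow, C1qa was at 0.488, 0.0939 and 0 CPM, Cd3e at 0 in all 3, Csf1r at 8.78, 7.89 and 8.94 CPM, and Ptprc at 12.7, 17.7 and 8.18 CPM. The macrophage marker Cd68 was not above the other groups in DTC. It was at 122, 127 and 232 CPM in DTC, at 113, 270.4 and 244 CPM in mCherryHigh and at 196, 117 and 211 CPM in mCherryLow, and the B cell marker Cd79a was at most 4.33 CPM in any library. C1qa and Cd3e were at or near 0 in mCherryHigh and mCherryLow, while Csf1r and Ptprc were detected there. The part of other cells in these values was not tested.

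Among the proteases, Aph1c, a subunit of the gamma-secretase that cleaves Notch, was at 44.9, 45.8 and 121 CPM in DTC, at 9.32, 9.90 and 11.7 CPM in mCherryHigh and at 1.95, 4.13 and 4.30 CPM in mCherryLow. It rose in DTC by 2.51 (SE 0.52, limma adjusted p = 0.00619), and 81.6% of its windows are unique. Serpina3g, an inhibitor of cysteine proteases, was at 98.2, 40.4 and 33.6 CPM in DTC, at 12.4, 15.6 and 13.6 CPM in mCherryHigh and at 3.41, 2.44 and 4.81 CPM in mCherryLow. It rose by 1.82 (SE 0.52, limma adjusted p = 0.0231), and 84.5% of its windows are unique, so its reads may include those of other genes. Enpep, which trims angiotensin, averaged 16.5 CPM in DTC, 11.1 CPM in mCherryHigh and 4.25 CPM in mCherryLow, and Usp34, a deubiquitinase of the WNT pathway, averaged 89.9 CPM in DTC, 89.00 CPM in mCherryHigh and 45.3 CPM in mCherryLow.

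Many members are long genes, a feature that the rule did not use. Their genomic span had a median of 86.0 kb, against 27.4 kb for the 8745 genes with an annotated span that reached 10 CPM in both groups. A span over 100 kb was found in 66 of 146 members (45.2%), against 14.2% of the 8745. Exonic length had a median of 8.31 kb in members and 4.98 kb in the 8745. CPM values are not divided by length. Etl4 (901 kb) and Robo1 (738 kb) are among the longest members. The 34 members that rose in DTC had a median span of 137 kb, and the other 113 had a median of 78.0 kb. Across the 8745 genes, Spearman's rank correlation of span was 0.23 with mCherryHigh minus mCherryLow, 0.20 with DTC minus mCherryLow and 0.09 with DTC minus mCherryHigh, and across the members it was 0.20 with DTC minus mCherryHigh. These correlations run over genes of the same libraries and are a description.

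**Figure D4:**
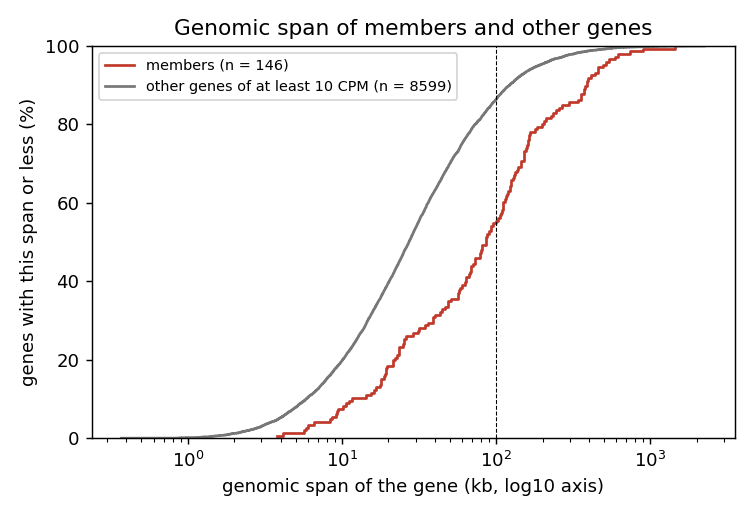
The share of genes (vertical axis, in %) with a given genomic span or less (horizontal axis, kb, log10 axis) is drawn for the members and for other genes with at least 10 CPM in both groups. The curve of the members lies to the right, with 45.2% of members beyond 100 kb, the dashed line.

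A signal from genes that most tissues do not use moved with the groups in part. The 428 olfactory receptor genes summed to 3296, 1813 and 4631 CPM in DTC and to 1282, 80.6 and 168 CPM in mCherryHigh, with 210, 138 and 55.9 CPM in mCherryLow. Thus mCherryHigh 1 shared the signal with DTC, and mCherryHigh 5 and 6 lay in the range of mCherryLow. The members summed to 9154, 7684 and 11949 CPM in DTC and to 6203, 4825 and 6179 CPM in mCherryHigh, with 1818, 1982 and 2302 CPM in mCherryLow. The rule put each member above mCherryLow in every mCherryHigh library, so these sums are a description. The median member was at 31.1 CPM in mCherryHigh 1, 22.4 CPM in mCherryHigh 5 and 23.5 CPM in mCherryHigh 6. The part of the olfactory receptor signal in the values of single members was not tested.

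**Figure D5:**
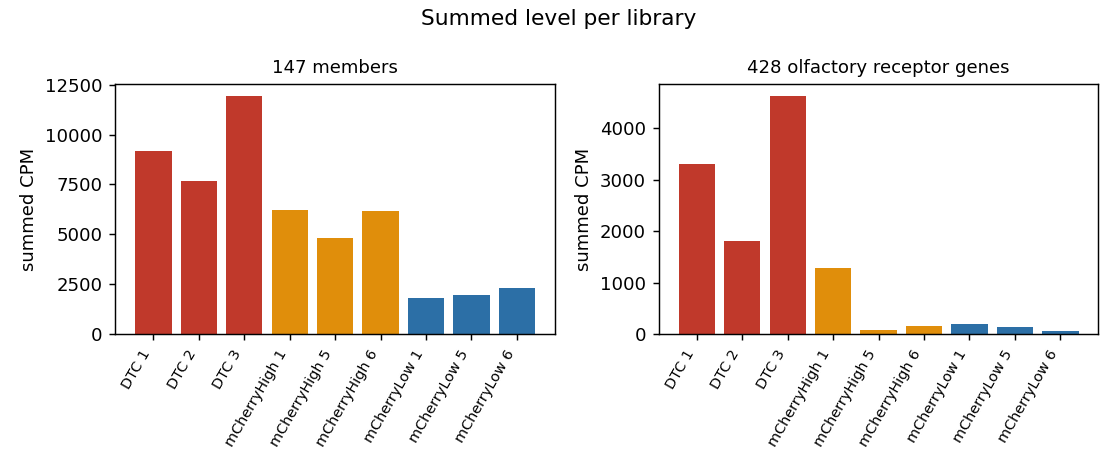
Bars give the summed CPM of the 147 members (left) and of 428 olfactory receptor genes (right) in each library, with DTC at the left, mCherryHigh in the middle and mCherryLow at the right. Members are high in all 6 DTC and mCherryHigh libraries, as the rule requires. The olfactory receptor sum is high in the 3 DTC libraries and in mCherryHigh 1.

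The codes on the labels place mCherryHigh 1 with mCherryLow 1 and mCherryHigh 5 with mCherryLow 5 and 6, and what the codes mean is not stated. The library mCherryHigh 6 stands alone in its code. All DTC libraries share a code that no other library has, so code, time and sort cannot be told apart for them. Within the first code, mCherryHigh minus mCherryLow was at least 1 in 133 members, with a median of 1.75, against a background of 19.9% of the 8797 genes. Within the second it was at least 1 in 94 members, with a median of 1.18, against 9.83%. Both held in 81 members. The rule used these values, so the counts describe how the members divide.

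Just inside the threshold, the smaller difference was 1.01 for Pfkfb2, 1.00 for Nfat5 and 1.00 for Slc6a8. Just outside it was 0.99 for each of Slc25a42, a mitochondrial carrier of coenzyme A, Phactr1, which binds actin, and Kpna2, an importin of nuclear transport. Phactr1 was at 90.6 CPM in DTC and 15.1 CPM in mCherryHigh, against 8.07 CPM in mCherryLow. The number of genes that meet the rule was larger without some libraries, at 283 without mCherryHigh 5, 227 without mCherryLow 5 and 334 without mCherryLow 6. It was 69 with TMM scaling, which weights out genes of extreme ratio, and all of those are members. Of the 146 members with annotated transcripts, 14 had fewer than 90% unique windows, among them Zfp119b, Vwa1 and Lrrc8a, and 48 have exons that overlap those of another gene. Members lie on 19 chromosomes, with 18 on chromosome 1, 17 on chromosome 2, 16 on chromosome 11 and 7 on the X chromosome.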

How the data were processed

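CPM values per gene were deposited by the authors for all 9 libraries (3 in each of 3 groups). Per the labels' protocols, sorted cells gave RNA by RNAqueous-Micro and libraries by SMART-seq v4 and Nextera XT. Per the submitters' processing notes the build was mm9, with aligner and counter not given in the sources used here. Each CPM value was a whole number of reads times the value of 1 read (100% within 0.01 read), so library totals were recovered.

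Differences are of mean log2(CPM + 1), which understates the change of low genes. Genes with at least 1 CPM in 3 of 6 libraries were tested with limma 3.58.1 (trend, two-sided, Benjamini-Hochberg adjustment, threshold 0.05), and the recovered reads with DESeq2 1.42.0 and edgeR 4.0.16, both chosen after seeing the data. Lengths, unique windows and overlaps come from GENCODE M21 on GRCm38, matched by gene identifier, and promoters from RefSeq, matched by symbol. Members and lists were chosen with earlier results of these data known. Named are Gstt1, the 15 leading members, the 10 most abundant, the 10 that rose most in DTC, the members on lists, the genes nearest the threshold and, chosen after their values were seen, examples of each role. One gene that the rule names is not reported here. Array weights, other scalings, filters, pseudocounts and left-out libraries were tried. The analysis was tested on simulated data.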

Additional observations from a re-analysis of the deposited data

How the results depend on the processing

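The number of members, 147 as reported, was 69 with TMM scaling, 55 with quantile normalization (48 of them members), 52 with a difference of at least 1.5, 256 with a mean of at least 5 CPM and 89 with a mean of at least 20 CPM. It was 49 when counting intervals had to lie apart, an alternative chosen after seeing the data, as were thinning to the shallowest library (145, of which 84 are members), edgeR and DESeq2. Leaving out 1 library gave 149 to 334. For DTC with mCherryHigh, 5949 genes were called as reported, 3080 with quantile normalization, 9545 with array weights and 2538 to 6997 without 1 library, with 2538 without DTC 1, 3265 without DTC 3, 3588 without mCherryHigh 5 and 3911 without mCherryHigh 6. Members that rose numbered 53 with array weights and 21 to 35 without 1 library, and those that fell numbered 0 under each of these. The rule limits how far a member can fall. For mCherryHigh with mCherryLow, limma called 0 genes as reported, with quantile normalization and without each library (0 to 0), and DESeq2 called 148. For DTC with mCherryLow, 8064 were called as reported, 4455 with quantile normalization and 3628 to 7008 without 1 library, with 3628 without DTC 1 and 4387 without DTC 3. The cause of these changes was not tested. With a replicate block for the numbers 1, 5 and 6, limma called 0 genes between mCherryHigh and mCherryLow. Their deviations correlated at -0.204, -0.0234 and 0.270 across genes, so they were not taken as pairs. No paired analysis was possible for DTC because it shares only the number 1 with the other groups. Depth limits members whose lowest value rests on few reads, most of all in mCherryHigh 1.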
